A study of Arabidopsis thaliana with 14 samples.

Results

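Methylation was described at 3 Arabidopsis thaliana loci, AT2G11462, AT1G40104 and AT2G08986, out of 37899 annotated nuclear genes and pseudogenes. A locus was taken as the gene with 2 kb on each side, and its level as the methylated share of all cytosine calls in the 300 nt windows that overlapped it. The 3 loci were chosen from the same libraries because their CG level was lower in endosperm than in embryo in each of 7 crosses. The contrast of endosperm with embryo is therefore given below as a description, without a test, in all 3 sequence contexts. Tests were run only between libraries of the same tissue, for pairs of strains and of reciprocal hybrids. The choice was not made on those differences, but it read the CG levels of the same libraries.

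The libraries were whole-genome bisulfite libraries from endosperm and embryo of seeds dissected 6 days after pollination. Crosses are named with the female parent first. The hybrids were Ler x Cvi with its reciprocal Cvi x Ler, and Col x Cvi with its reciprocal Cvi x Col, and each strain (Col, Ler and Cvi) was also selfed, as Cvi x Cvi, Ler x Ler and Col x Col. Each cross gave 1 endosperm and 1 embryo library, 14 in all, so no value has a replicate error. Confidence intervals (Wilson for a level, Newcombe for a difference, both 95%) cover counting error at most, and Fisher's exact tests compare libraries rather than strains. Neighboring windows overlap, so levels pooled over several windows can count a call more than once. Their intervals, called counting intervals below, are therefore too narrow even for counting error. Reads of selfed Col and Cvi and of their hybrids were aligned first to the Col reference. Those of selfed Ler and of the Ler and Cvi hybrids were aligned first to a Ler genome. Cvi and hybrid reads that failed there were aligned to a Cvi-substituted Col reference. Ler parentage and the alignment to Ler therefore cannot be told apart.

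Plant cytosines are methylated in the CG, CHG and CHH contexts, where H is any base but G. CG methylation is copied after replication by the methyltransferase MET1, CHG methylation is kept mainly by CMT3 and its link to histone H3 lysine 9 methylation, and CHH methylation is laid down anew by RNA-directed methylation and by CMT2. In the central cell, the female gamete that gives rise to the endosperm, the DNA glycosylase DEMETER excises methylated cytosines, and maternal chromosomes enter the endosperm with less methylation at its targets. The embryo descends from the egg cell and largely retains the methylation of the parents.

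AT2G11462 lies at chr2:4589735-4590378 on the minus strand, is 644 nt long and has 3 exons (TAIR10.1, RefSeq annotation). AT1G40104 lies at chr1:15081952-15085893 on the plus strand and has 22 exons in 3942 nt. AT2G08986 lies at chr2:3618058-3626460 on the plus strand and has 46 exons in 8403 nt. All 3 are annotated as partial protein-coding models without a gene symbol or a described function. The pseudogene AT1G40103 reaches into the flank of AT1G40104, and the protein-coding AT2G07981 into the flank of AT2G08986. No other annotated gene was found in the flanks.

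The sequences of the loci are of 2 kinds, with and without an array of a repeated unit. For each locus the window with the deepest coverage in its shallowest library is printed, 5′ to 3′ on the plus strand, with CG sites in capitals, from chr2:4590801-4591100 for AT2G11462, chr1:15083201-15083500 for AT1G40104 and chr2:3620401-3620700 for AT2G08986.
AT2G11462: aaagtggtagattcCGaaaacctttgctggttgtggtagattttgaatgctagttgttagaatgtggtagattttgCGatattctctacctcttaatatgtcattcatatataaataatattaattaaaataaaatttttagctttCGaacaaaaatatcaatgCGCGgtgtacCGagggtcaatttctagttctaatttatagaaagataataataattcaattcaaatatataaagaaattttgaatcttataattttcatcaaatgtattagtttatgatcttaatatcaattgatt
AT1G40104: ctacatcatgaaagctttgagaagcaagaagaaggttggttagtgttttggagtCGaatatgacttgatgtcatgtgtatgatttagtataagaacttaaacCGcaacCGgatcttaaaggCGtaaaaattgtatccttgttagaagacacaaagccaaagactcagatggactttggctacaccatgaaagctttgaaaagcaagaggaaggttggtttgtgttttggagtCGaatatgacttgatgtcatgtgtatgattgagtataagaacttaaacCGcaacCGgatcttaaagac
AT2G08986: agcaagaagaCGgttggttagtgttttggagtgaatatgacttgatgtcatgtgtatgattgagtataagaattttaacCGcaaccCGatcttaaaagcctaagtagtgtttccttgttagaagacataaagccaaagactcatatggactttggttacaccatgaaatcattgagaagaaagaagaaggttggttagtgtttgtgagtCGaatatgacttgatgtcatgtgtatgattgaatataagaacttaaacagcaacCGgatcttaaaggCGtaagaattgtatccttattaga
The printed windows hold 6, 7 and 6 CG sites. The windows of AT1G40104 and AT2G08986 aligned to each other at 90.9% identity, 251 of 276 bases, although the genes lie on different chromosomes. Neither aligned to the window of AT2G11462.

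AT1G40104 and AT2G08986 are arrays of a repeated unit. Over the whole AT2G08986 locus, 75.1% of bases were identical to the base 178 nt further along and 62.0% to the base at double that distance, against a median of 26.6% over all offsets of 100 to 600 nt. The AT1G40104 locus also peaked at 178 nt, at 54.0% against a median of 26.8%. Within the printed windows, 116 of 122 bases of AT1G40104 and 90 of 122 bases of AT2G08986 matched the base 178 nt on. Annotated exon starts lay a median of 178 nt apart in both genes, with 8 of 21 spacings in AT1G40104 and 24 of 45 in AT2G08986 within 8 nt of that value. AT2G11462 showed no such unit, with a best offset of 148 nt at 30.8% against a median of 28.2%.

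**Figure D1:**
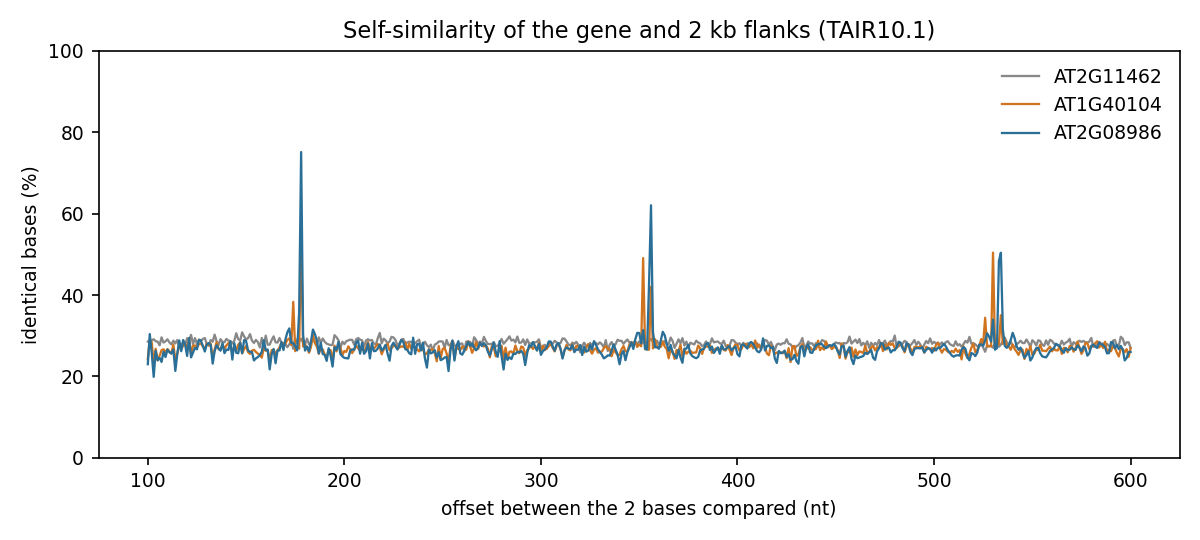
Share of identical bases (%) in the gene and 2 kb flanks against the offset between the bases compared (nt), 1 line for each locus. AT1G40104 and AT2G08986 peak at 178 nt, at 54.0% and 75.1%, whereas AT2G11462 stays near its median of 28.2%.

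Copies of the repeat were found on all 5 chromosomes. The printed AT1G40104 window had 1999 blastn hits of at least 80% identity over at least 150 nt, of which 123, 155, 72, 613 and 1036 lay on chromosomes 1 to 5, and the AT2G08986 window had 1778. The AT2G11462 window hit only itself. Per window, AT2G08986 had a median of 1988 hits and 63 of its 64 windows had 100 or more, AT1G40104 had a median of 1592 hits with 24 of 41 such windows, and AT2G11462 a median of 2 with 0 of 24. The AT1G40104 locus holds 1000 unknown bases in 7942 nt, against 145 in 12403 nt at AT2G08986 and 0 at AT2G11462. Windows of unknown bases have 0 hits and stay among the 41. At AT2G11462, 11 of the 24 windows hit only themselves, and the most hits of any window was 83. Of the 80 nt words in each locus, 57.0% occurred in only 1 place of the nuclear reference in AT2G08986, 77.1% in AT1G40104 and 100% in AT2G11462. Arabidopsis centromeres are built of a tandem satellite with a unit of about this length. An annotation of satellites was not used here. Whether reads from other copies of the array were counted at these loci was not tested.

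Depth set the repeat loci apart as well. The median CG window of AT1G40104 held 3.51 to 30.2 times the library median in the 7 endosperms and 1.91 to 6.02 times in the 7 embryos. AT2G08986 held 3.23 to 19.5 times in the endosperms and 1.60 to 5.38 times in the embryos. AT2G11462 held 0.792 to 4.0 times in the endosperms and 0.75 to 1.29 times in the embryos. All libraries were therefore above their own median at both repeat loci, and in each tissue the range was wider than at AT2G11462. The part of copy number in the levels below was not tested. More calls let a window pass the tests below at a smaller difference. Counts without a size threshold were not matched to all windows in depth or in methylation level. The part of depth in those counts was not tested.

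**Figure D2:**
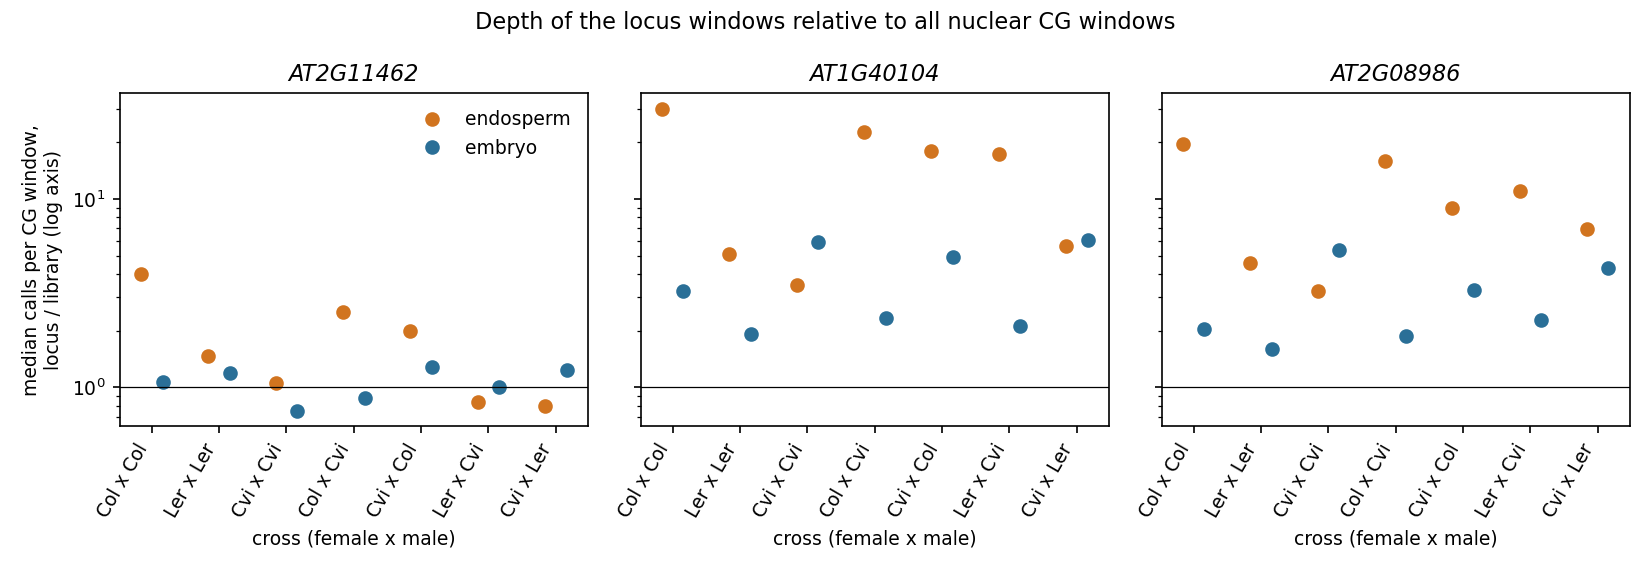
Median calls per CG window at each locus divided by the median of all nuclear CG windows of the same library (log axis), 1 point per library, with endosperm left of embryo in each cross. The horizontal line marks a ratio of 1, and all 14 points lie above it at AT1G40104 and AT2G08986.

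Across the series, summed nuclear CG calls ranged over 214040 to 21029487 in the endosperm libraries and 8096343 to 62566453 in the embryo libraries, in overlapping windows that can count a call more than once. Chloroplast CG calls, which should be unmethylated, were methylated at 0.0299% to 0.775%. Of 8 loci known for demethylation in endosperm (MEA, FIS2, FWA, MPC, PHE1, HDG3, HDG9 and SDC), those lower in endosperm were 8 of 8 with data in selfed Ler, 3 of 3 in selfed Col, 7 of 8 in selfed Cvi, 7 of 8 in Col x Cvi, 6 of 6 in Ler x Cvi, 6 of 8 in Cvi x Ler and 6 of 7 in Cvi x Col. The counts take a difference of any size. Some of these loci were almost unmethylated in both tissues, such as MPC in selfed Cvi, at 0.498% in endosperm and 0.513% in embryo. The Cvi x Ler embryo library stood apart, since its CG windows correlated with the mean of its parents at r = 0.801, against 0.980 to 0.982 in the other hybrid embryos. Within 300 kb of the loci this r was 0.752 at AT2G11462, 0.473 at AT1G40104 and 0.952 at AT2G08986, against 0.953 to 0.963, 0.781 to 0.823 and 0.980 to 0.987 in the other hybrid embryos. At other offsets along the chromosome the best r of this library was 0.558, 0.483 and 0.775 at the 3 loci. The cause of the low r was not tested. Reciprocal counts that rest on this library are given with and without it. So are the mean differences in CG, those at AT2G11462 and that in CHH at AT2G08986. The other mean differences include it.

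At AT2G11462 the endosperm CG level ran from 31.6% (Ler x Cvi) to 65.9% (Cvi x Ler), with a median of 49.2%. The embryo level ran from 71.6% (Ler x Cvi) to 89.9% (selfed Col), with a median of 83.1%. Each value covers only the windows that both tissues of its cross share. There were 4 such windows for Ler x Cvi, 21 for Cvi x Ler and 1 for selfed Col. The order of the crosses therefore compares different stretches of the locus. Over the 17 windows shared by all embryos, Cvi x Cvi was lowest, at 73.9%, and selfed Col highest, at 96.1%. The Ler x Cvi embryo had 83.1% over those windows. Only 1 window was shared by all endosperms. Every endosperm lay below every embryo. The difference was -31.5 ± 11.9 points (mean and SD over 7 crosses), and -34.8 points without Cvi x Ler. It was widest in Col x Col, with 41.7% in endosperm and 89.9% in embryo, a value that rests on 1 window and 24 endosperm calls. The well covered Ler x Ler cross had 49.2% in endosperm on 557 calls and 83.1% in embryo on 1481 calls. Cvi x Ler was the narrowest, at 65.9% in endosperm and 77.3% in embryo, a difference of -11.4 points (interval -16.7 to -6.03).

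At AT1G40104 the endosperm CG level ran between 48.1% (Ler x Cvi) and 67.8% (Cvi x Ler), with a median of 55.9%. Among embryos it ranged from 81.3% in Ler x Ler to 88.0% in Col x Cvi, with a median of 83.8%. The embryos were alike within 7 points, and the spread lay in the endosperms. The difference was -27.8 ± 9.11 points, from -39.8 in Col x Cvi to -16.1 in Cvi x Ler. Of 176 comparisons of a window within a cross, 170 were lower in endosperm.

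At AT2G08986 the CG level ran between 42.8% (Ler x Cvi) and 60.5% (Cvi x Ler) among endosperms, with a median of 49.0%, and from 71.4% in Cvi x Cvi to 77.7% in Col x Cvi among embryos, with a median of 73.6%. The order of the crosses was close to that at AT1G40104, with Col x Cvi and Ler x Cvi the lowest endosperms and Cvi x Ler the highest in both. The difference was -23.0 ± 7.78 points, from -34.3 in Col x Cvi to -14.2 in Cvi x Ler, and 342 of 358 window comparisons were lower in endosperm. The counting interval of the difference lay below 0 in all 7 crosses at each of the 3 loci, as the choice of the loci requires of its sign. Loss of the embryo level ran from 14.8% to 55.9% at AT2G11462, from 19.2% to 45.2% at AT1G40104 and from 19.0% to 44.2% at AT2G08986.

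**Figure D3:**
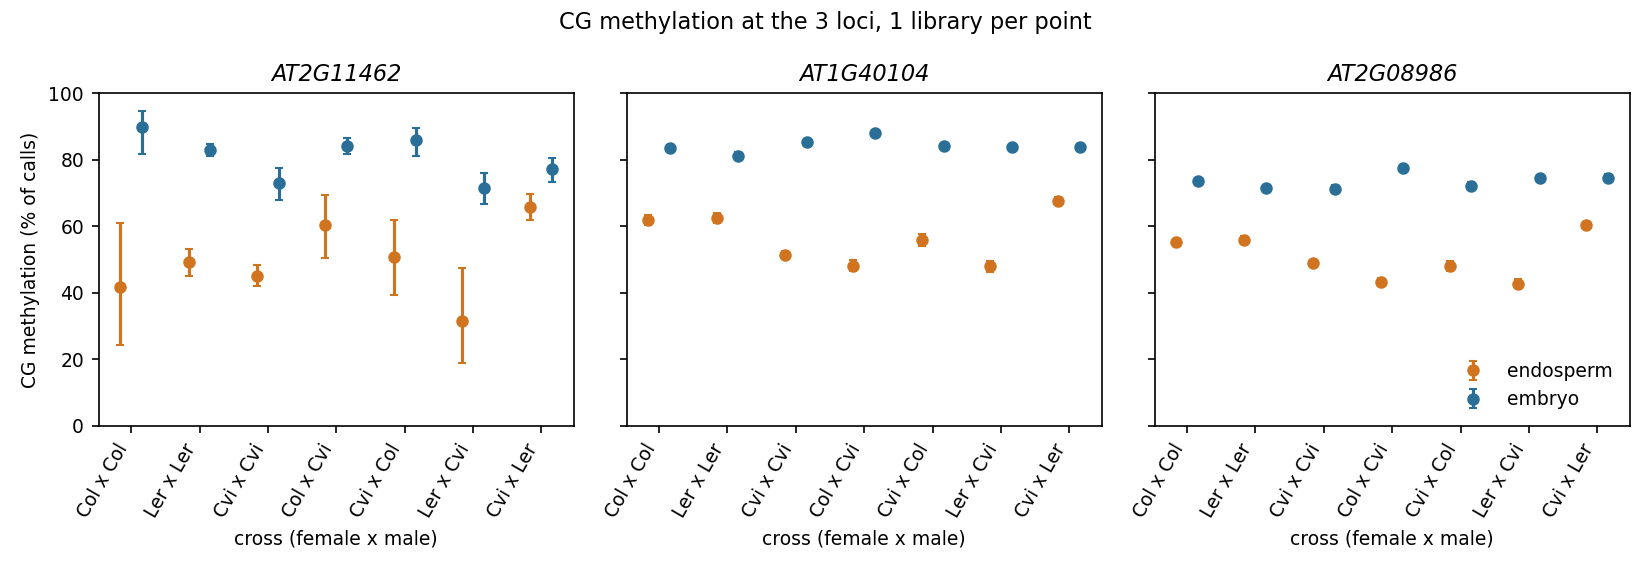
CG methylation (% of calls) at each locus by cross, endosperm left of embryo, 1 library per point with Wilson 95% intervals for counting error. In every cross the endosperm point lies below the embryo point, and the 2 tissues lie closest in Cvi x Ler.

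The lower CG level was not confined to the gene bodies. In Ler x Ler, the upstream flank of AT2G11462 had 24.5% in endosperm and 64.5% in embryo, its gene body 63.2% and 93.1%, and its downstream flank 77.3% and 93.7%. At AT2G08986 the same cross had 57.7% in endosperm and 73.6% in embryo upstream, 55.3% and 70.7% in the gene body, and 58.9% and 72.6% downstream. In this endosperm the level of AT2G11462 was higher at each step from upstream to downstream, whereas AT2G08986 was flat. The upstream flank of AT2G11462 includes 4 windows, described below, that were almost unmethylated in both Ler tissues. They had 2 methylated of 95 endosperm calls and 0 of 151 embryo calls, out of 253 and 533 calls in this flank. The low upstream levels therefore include a stretch without a tissue difference in Ler. The Col x Cvi gene body of AT2G11462 was the exception, with 92.0% in endosperm on 25 calls and 91.8% in embryo.

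The window with the widest difference averaged over the Ler and Cvi selfed crosses, among those with at least 15 calls in all 4 libraries, illustrates the range at each locus. The printed AT2G11462 window, upstream of the gene, had 23.7% in Ler x Ler endosperm and 98.5% in Ler x Ler embryo, and 30.4% in Cvi x Cvi endosperm and 72.7% in Cvi x Cvi embryo. In the other crosses it ranged from 35.5% to 58.8% in endosperm and from 85.3% to 92.9% in embryo, with 17 to 74 endosperm calls. The AT1G40104 window at chr1:15084001-15084300 had 26.7% in Ler x Ler endosperm and 88.2% in embryo, and 19.2% in Cvi x Cvi endosperm and 78.2% in embryo. The AT2G08986 window at chr2:3621601-3621900 had 26.8% in Ler x Ler endosperm and 78.2% in embryo, and 19.8% in Cvi x Cvi endosperm and 85.7% in embryo. Each window was the extreme of 5 eligible windows at AT2G11462, 20 at AT1G40104 and 45 at AT2G08986. It was picked on these same libraries, so low endosperm levels in both selfed strains follow in part from the choice. The other printed windows were less extreme, at 47.2% to 67.0% in endosperm and 83.4% to 88.4% in embryo for AT1G40104, and at 47.2% to 72.0% in endosperm and 77.0% to 85.6% in embryo for AT2G08986, over the 7 crosses.

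The pattern was shared by other genes. Of 6135 genes with CG windows in every cross, 747 (12.2%) were lower in endosperm in every cross, and 389 of 4828 protein-coding genes were. The mean difference at AT2G11462 was exceeded by 126 of the 747, at AT1G40104 by 200 and at AT2G08986 by 312. The repeat loci stood apart in depth. The shallowest library held 4231 calls at AT2G08986, more than at any other of the 747 genes, and 3265 at AT1G40104, where 1 gene had more. AT2G11462 had 24, against a median of 10. Of windows present in all 14 libraries, 1 of 1 at AT2G11462, 20 of 20 at AT1G40104 and 40 of 48 at AT2G08986 were lower in endosperm in every cross, against 390 of 1028 such windows genome-wide (37.9%). At the edge of the rule, among 94 protein-coding genes with at least 100 calls in each library, AT2G07825 was just inside with a difference nearest to 0 of -0.0653 points, and AT2G07827, AT2G07830 and AT2G07787, which share their value, were just outside at 0.130 points.

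CHG methylation was also lower in endosperm at the repeat loci in all 7 crosses. At AT1G40104 it ranged from 30.3% to 48.7% among endosperms, median 36.8%, and from 41.7% to 68.5% among embryos, median 46.9%, and the difference was -16.2 ± 7.24 points. At AT2G08986 it ranged from 25.1% to 40.3% among endosperms, median 27.2%, and from 28.2% to 56.5% among embryos, median 39.9%, and the difference was -14.5 ± 8.12 points. Both loci had their widest difference in Cvi x Cvi (-25.7 and -29.3 points) and their narrowest in Ler x Ler (-6.59 and -3.10 points). In contrast to CG, the embryos differed widely among crosses, and the levels of endosperms and embryos overlapped.

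At AT2G11462 the CHG level was lower in endosperm in 5 of 7 crosses, and the difference was -16.1 ± 19.4 points. Cvi x Ler contributed the widest value, 17.8% in endosperm and 69.1% in embryo, and without this cross the mean was -10.3 points. Ler x Ler had 21.3% in endosperm and 49.5% in embryo. Cvi x Cvi had 29.7% in endosperm and 27.0% in embryo, with an interval of the difference of -3.85 to 8.81 points, and Col x Col had 33.3% on 6 endosperm calls and 28.6% in embryo.

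**Figure D4:**
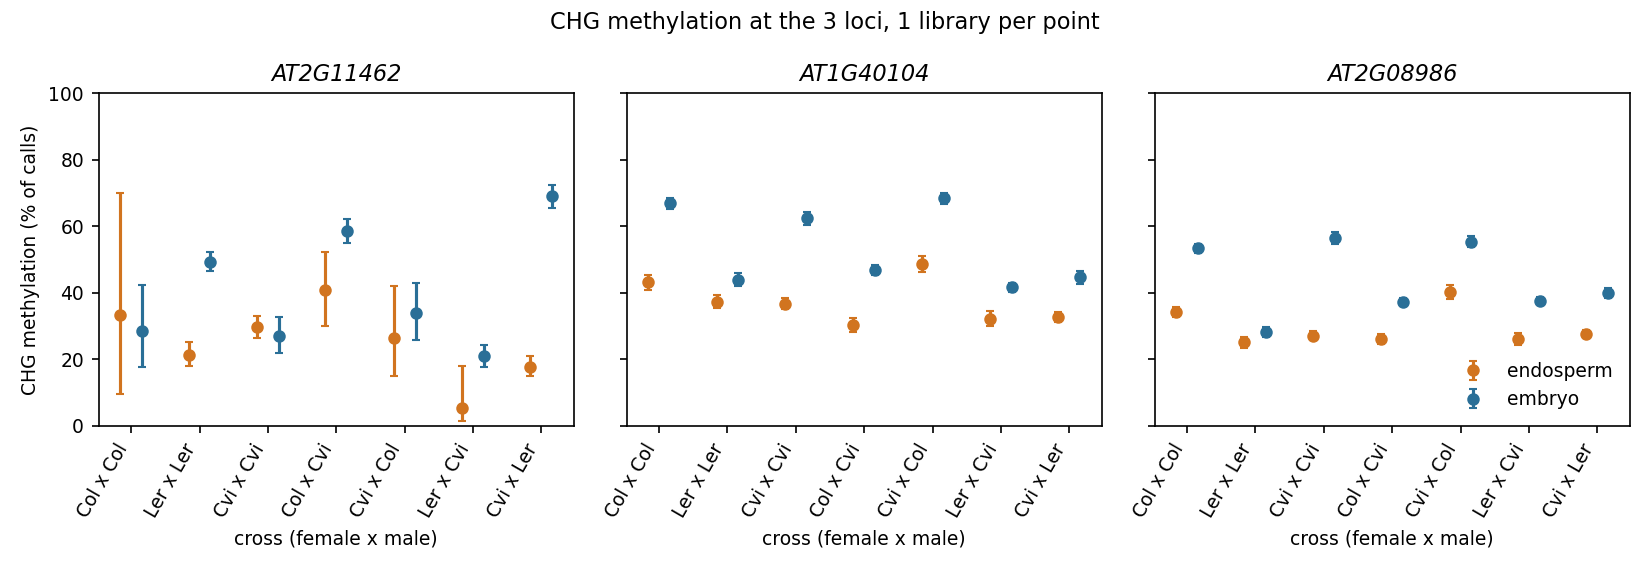
CHG methylation (% of calls) at each locus by cross, endosperm left of embryo, 1 library per point with Wilson 95% intervals for counting error. Embryo levels at AT1G40104 and AT2G08986 are highest in Cvi x Col and in selfed Cvi and Col, whereas selfed Ler is among the lowest.

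CHH methylation was low in all libraries at all 3 loci. At AT1G40104 it ranged from 4.51% to 6.65% among endosperms and from 6.22% to 9.76% among embryos, and at AT2G08986 from 4.74% to 6.30% and from 6.19% to 9.72%. The differences were -1.88 ± 1.48 points and -1.93 ± 1.33 points, and both were lower in endosperm in 7 of 7 crosses, although the interval in Ler x Cvi at AT1G40104 included 0 (-0.394 to 0.189 points). The Col x Col cross had the widest difference at both, 5.22% in endosperm and 9.76% in embryo at AT1G40104 and 5.13% and 9.72% at AT2G08986. At AT2G11462 the difference was -0.792 ± 3.07 points, or -0.322 points without Cvi x Ler, and changed sign among crosses, with 3.18% in endosperm and 7.72% in embryo in Ler x Ler, but 9.76% in endosperm and 6.38% in embryo in Col x Cvi.

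Between strains, the repeat loci had more windows called in CHG than in CG in the pairs with Ler. Over 26 windows shared by all embryos, AT1G40104 had 66.5% CHG methylation in the selfed Col embryo, 44.6% in Ler and 59.6% in Cvi. Over 41 windows, the AT2G08986 levels were 53.3% in Col, 28.2% in Ler and 56.6% in Cvi. Ler was lowest at both loci. Over the corresponding CG windows the 3 selfed embryos lay between 81.6% and 84.9% at AT1G40104 and between 71.2% and 73.6% at AT2G08986.

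Between the Col and Ler embryos, the median CHG difference over tested windows was 23.5 points at both repeat loci and 0.0 over all windows. The window test (Fisher's exact test, adjusted p below 0.01, at least 35 points) called 3 of 23 windows at AT1G40104 and 6 of 37 at AT2G08986 higher in Col, against 0.765% of all windows tested, and 0 lower. Dropping the size threshold, 13 of 23 and 13 of 37 were higher in Col (1.11% of all windows) and 0 lower. The lowest adjusted p was 4.01e-19 at chr2:3623801-3624100 in AT2G08986, where CHG was 73.8% in the Col embryo and 12.0% in the Ler embryo. At AT1G40104 it was 1.19e-12 at chr1:15084601-15084900, with 71.7% in Col and 22.4% in Ler.

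Between the Ler and Cvi embryos, the CHG medians were -16.3 points at AT1G40104 and -25.6 points at AT2G08986, and 3 of 22 and 4 of 36 windows were called lower in Ler (0.948% of all windows tested), with 0 higher. The AT1G40104 window at chr1:15084601-15084900 had 22.4% in Ler and 90.2% in Cvi (adjusted p = 1.16e-14, Fisher's exact test with Benjamini-Hochberg adjustment). The AT2G08986 window with the lowest adjusted p, 7.64e-22, was chr2:3621601-3621900, with 79.0% in Cvi and a level 54.0 points lower in Ler. Between Col and Cvi 0 CHG windows passed the 35 point threshold at any of the 3 loci (1.01% of all windows passed as higher in Col and 0.932% as lower). At any size 1 of 28 at AT1G40104 and 1 of 40 at AT2G08986 were higher in Col and 0 and 1 lower. The shares of all windows at any size are not given and cannot be below those at 35 points. Nothing is read from these counts. At 35 points, all CHG calls of the repeat loci between selfed embryos thus involved the Ler embryo, a library that both pairs share.

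In CG, few windows of the repeat loci were called between embryos. Between Col and Ler 2 of 23 windows at AT1G40104 and 2 of 50 at AT2G08986 were higher in Col (4.24% of all windows tested) and 0 lower. The clearest at AT2G08986 was chr2:3625601-3625900, with 72.9% in the Col embryo and 28.2% in the Ler embryo (adjusted p = 1.46e-12, Fisher's exact test with Benjamini-Hochberg adjustment), and the same window had 53.2% in the Col endosperm and 17.6% in the Ler endosperm (adjusted p = 8.8e-08). Between Col and Cvi, 1 of 28 and 3 of 49 were higher in Col (8.19%) and 0 and 1 lower (1.64%). Between Ler and Cvi, 1 of 22 and 2 of 48 were higher in Ler (7.94%), with 1 and 0 lower (1.77%). Each repeat locus thus had 0 to 3 CG windows called in either direction of a pair.

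In the pairs with Col, CHH windows of the repeat loci leaned toward Col. At any size, 15 of 28 windows at AT1G40104 and 24 of 56 at AT2G08986 were higher in the Col than in the Ler embryo (2.88% of all windows tested) and 0 and 1 lower (1.02%), with median differences of 3.99 and 3.78 points, against 0.103 points over all windows. Only 1 window, at AT1G40104, also passed the 10 point threshold (1.65%). In embryos the median CHH window held 3.14 to 11.7 times the library median at AT1G40104 and 3.51 to 11.9 times at AT2G08986. The part of this depth in the counts at any size was not tested. Against the Cvi embryo, 12 of 33 and 15 of 56 were higher in Col (1.98%) and 0 and 2 lower (1.91%), with medians of 2.86 and 2.16 points against 0.213. Between the Ler and Cvi embryos the CHH medians leaned toward Cvi, at -0.487 points at AT1G40104 and -1.35 points at AT2G08986, against 0.0 over all windows.

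In the selfed endosperms the CHG order of the strains differed between the repeat loci. Over 17 CHG windows shared by all endosperms, AT1G40104 levels were 42.9% in Col, 36.8% in Ler and 23.3% in Cvi. Over 40 windows, the AT2G08986 levels were 34.4% in Col and 27.5% in Cvi, and 699 of 2791 calls were methylated in Ler, which was the lowest there as in the embryos, although its counting interval (23.5 to 26.7) overlapped that of Cvi (26.2 to 28.9). Over 20 shared CG windows the AT1G40104 levels were 61.9% in Col, 62.5% in Ler and 49.0% in Cvi, and over 48 shared CG windows those of AT2G08986 were 55.2% in Col, 55.9% in Ler and 48.6% in Cvi. Cvi was therefore the lowest selfed endosperm in CG at both loci. It was also the lowest over all nuclear CG calls, at 11.3%, against 17.3% in Ler and 37.8% in Col, in windows that differ among these libraries. At any size, 9 of 20 CG windows at AT1G40104 and 10 of 48 at AT2G08986 were higher in Col than in Cvi (20.8% of the 1405 windows tested), and 7 of 20 and 5 of 48 were higher in Ler than in Cvi (9.09%), with 0 lower in both pairs. The counts at AT2G08986 were thus near the share of all windows in both pairs. At 35 points, 0 and 2 windows were higher in Col than in Cvi (5.62%) and 1 and 0 higher in Ler than in Cvi (7.51%). The Col comparison covers few windows genome-wide, because the weighted file of the Col x Col endosperm holds 8430 CG windows. The window mean file of the same library holds 311463, whereas the 2 files hold equal numbers in the other 13 libraries. The cause was not tested.

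AT2G11462 carried a strain difference of another kind, in its upstream flank. In 4 windows spanning chr2:4591001-4592100, centered between -1572.5 and -772.5 nt from the gene start, the Ler embryo had 0 methylated CG calls of 151, which allows a level of up to 1.99%. The Col embryo had 94.3% of 212 calls (interval 90.4 to 96.7) and the Cvi embryo 6.82% of 44 calls (2.35 to 18.2). These windows were picked after their values were seen, as those of the locus with at least 15 calls in the Col and Ler embryos and 0 methylated calls in Ler. The window of this stretch with most Ler embryo calls, chr2:4591201-4591500, is printed here with its 3 CG sites in capitals, because its methylation was nearly complete in 1 strain and not detected in another.
AT2G11462 strain window: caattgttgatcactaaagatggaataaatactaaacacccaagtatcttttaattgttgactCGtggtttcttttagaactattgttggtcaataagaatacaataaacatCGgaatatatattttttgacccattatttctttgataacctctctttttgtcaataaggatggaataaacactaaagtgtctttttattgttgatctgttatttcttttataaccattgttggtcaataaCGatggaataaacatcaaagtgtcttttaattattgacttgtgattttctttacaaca
It had 93.8% CG methylation in the Col embryo on 65 calls, 0 of 53 calls in the Ler embryo and 0 of 13 calls in the Cvi embryo.

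The test across all windows called 4 of 21 AT2G11462 windows higher in the Col than in the Ler embryo in CG, beside the 4.24% given above, and 0 lower. The adjusted p values were 5.87e-30 at chr2:4591001-4591300 (100% in Col, 0% in Ler), 4.16e-27 at chr2:4591201-4591500 and 1.62e-14 at chr2:4591801-4592100 (87.2% in Col, 0% in Ler), from Fisher's exact test with Benjamini-Hochberg adjustment. The median difference over the 21 windows was 4.94 points. CHG followed, with 39.7% in the Col embryo and 1.61% in the Ler embryo over the 4 windows, and 0 of 22 calls in the Cvi embryo, which allows up to 13.6%. CHH was 5.51% in the Col embryo, 0.785% in Ler and 0.122% in Cvi.

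**Figure D5:**
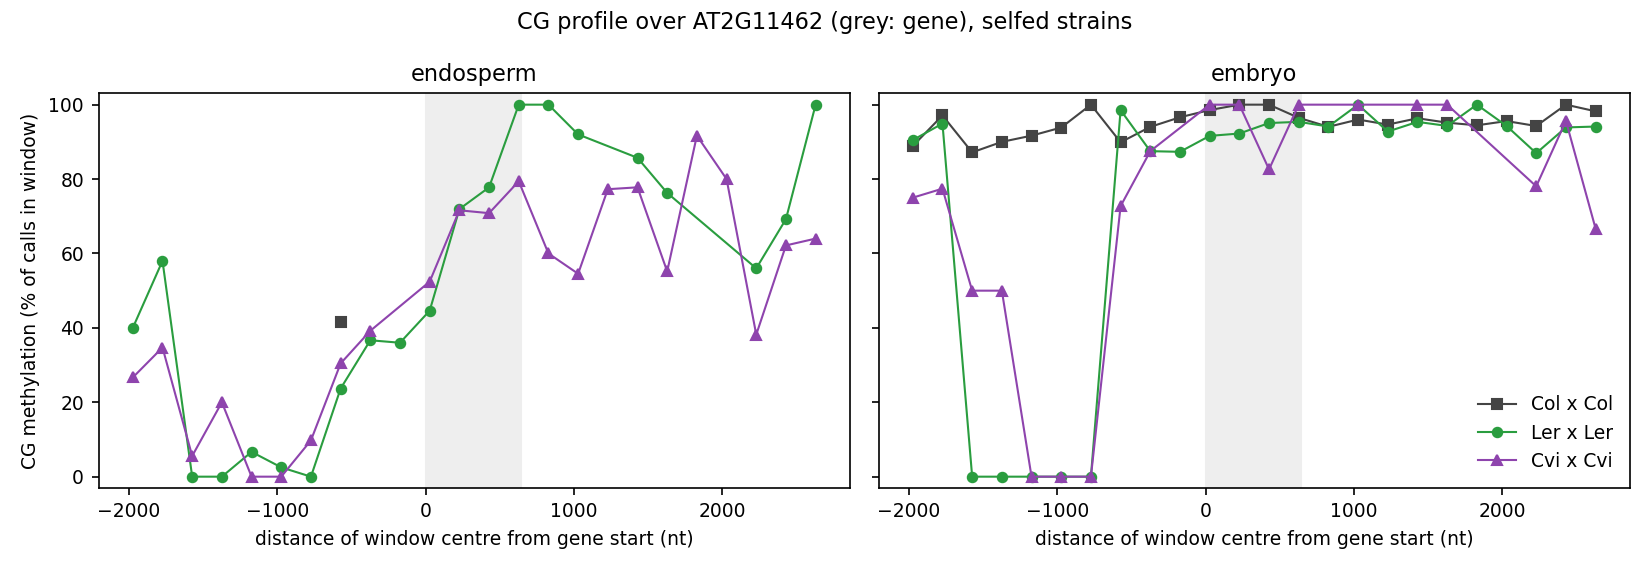
CG methylation (% of calls in a window) against the distance of the window center from the AT2G11462 gene start (nt, upstream to the left, gene shaded) in selfed endosperms (left) and selfed embryos (right), 1 line per strain. The Col embryo stays high throughout. In the 4 upstream windows described, pooled, the Ler embryo drops to 0 of 151 calls and the Cvi embryo to 6.82%.

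The reciprocal hybrid embryos of Col and Cvi lay between their parents in this stretch. Cvi x Col had CG calls in 3 of the 4 windows, and over those 3 the level was 34.8% of 181 calls in Col x Cvi (interval 28.2 to 42.0) and 50 of 125 calls were methylated in Cvi x Col (31.8 to 48.8), against 96.0% of 173 calls in Col and 0 of 38 calls in Cvi, which allows up to 7.89%. In the remaining window, chr2:4591801-4592100, Col x Cvi had 83.3% of 54 calls. Over all 4 windows the level was 9.40% in Ler x Cvi, against 0 of 151 calls in Ler and 6.82% in Cvi, whose interval includes the hybrid. Over the 3 windows covered in Cvi x Col, the Ler x Cvi embryo had 0 methylated of 151 calls and the Cvi embryo 0 of 38. All methylated calls of these 2 embryos in the stretch thus lay in chr2:4591801-4592100, and their pooled levels do not describe the other windows. The Cvi x Ler embryo had 30.1% CG and 66.1% CHG, above both of its selfed parents in each context, in the library with the low r given above. In the selfed endosperms Ler had 2.11% of 95 calls and Cvi 3.40% of 147 calls, and the Col x Col endosperm had 0 calls there. Pooled over the 4 windows, Ler and Cvi were thus low in both tissues. The tissue window printed first, which overlaps the edge of this stretch, was methylated in both embryos.

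The reciprocal hybrids of Col and Cvi differed at the repeat loci in CHG. In embryos, AT1G40104 had 45.6% CHG methylation in Col x Cvi, against 67.5% in Cvi x Col, and AT2G08986 had 37.3% and 55.6%. The median window difference was -12.6 points at AT1G40104, where 4 of 33 windows were called lower in Col x Cvi, and -19.2 points at AT2G08986, where 3 of 44 were, against 0.033% of all windows tested, with 0 higher. At any size 8 and 9 windows were lower (0.0577%). The lowest adjusted p values were 1.16e-11 at chr1:15085001-15085300, with 31.0% in Col x Cvi, against 73.2% in Cvi x Col, and 1.89e-07 at chr2:3620201-3620500, with 20.1% and 56.9% (Fisher's exact test, Benjamini-Hochberg). In CG 0 windows of the 3 loci passed 35 points between these embryos, and 2 of 52 at AT2G08986 were higher in Col x Cvi at any size (0.483%).

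The endosperms of this pair showed the same order. AT1G40104 had 28.9% CHG methylation in Col x Cvi, against 47.6% in Cvi x Col, and AT2G08986 had 26.3% and 40.5%. The median differences were -18.1 and -15.0 points, but 0 windows passed 35 points (0.37% of all windows passed as lower), and at any size 4 of 18 and 2 of 34 were lower in Col x Cvi (1.77%). In CG the medians were -9.20 and -4.58 points, and 1 of 44 windows at AT2G08986 was called lower in Col x Cvi (0.523%). In CHH, 7 of 21 windows at AT1G40104 and 7 of 51 at AT2G08986 were lower in Col x Cvi at any size (2.93% of all windows tested), with 0 higher, at levels of 4.46% in Col x Cvi, against 6.60% in Cvi x Col, at AT1G40104 and 4.74% and 6.31% at AT2G08986. Set beside the selfed parents over the windows each trio shared, the Col x Cvi embryo lay below both parents in CHG at AT1G40104 (52.7%, against 68.6% in Col and 62.5% in Cvi) and at AT2G08986 (37.2%, against 52.9% and 56.5%), whereas Cvi x Col had 69.5% at AT1G40104, against the same parental levels, and 55.5% at AT2G08986, against 53.1% and 56.3%.

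The reciprocal hybrids of Ler and Cvi differed in endosperm CG at the repeat loci and, in the opposite direction, in endosperm CHH at AT1G40104. In CG, AT1G40104 had 47.9% in Ler x Cvi, against 67.0% in Cvi x Ler over 21 shared windows, and AT2G08986 had 42.6% and 60.2% over 48. At any size, 12 of 20 windows at AT1G40104 and 15 of 47 at AT2G08986 were lower in Ler x Cvi (7.79% of all windows tested), with 0 higher, and 0 and 1 passed 35 points (3.37%). The lowest adjusted p at AT2G08986 was 6.29e-11 at chr2:3616801-3617100, with 38.8% in Ler x Cvi, against 65.6% in Cvi x Ler. At AT1G40104 it was 3.5e-11 in the printed window, with 47.6% and 66.6% (both Fisher's exact test with Benjamini-Hochberg adjustment). In CHG these endosperms were alike in level, with 31.9% in Ler x Cvi, against 32.6% in Cvi x Ler, at AT1G40104 and 26.4% and 27.9% at AT2G08986. In CHH, 4 of 22 windows at AT1G40104 and 3 of 53 at AT2G08986 were higher in Ler x Cvi at any size (3.67% of all windows tested), with 0 lower, and 0 passed 10 points. The CHH count at AT2G08986 was thus near the share of all windows. The CHH levels were 6.08% in Ler x Cvi, against 4.72% in Cvi x Ler, at AT1G40104 and 5.62% and 4.84% at AT2G08986. The Cvi x Ler endosperm was above both parents in CG, with 68.0%, against 62.7% in Ler and 50.7% in Cvi, at AT1G40104 and 60.5%, against 56.0% and 48.9%, at AT2G08986. At AT1G40104 the Ler x Cvi endosperm was below Ler and within counting error of Cvi (47.9%, against 62.5% in Ler and 48.9% in Cvi), whereas at AT2G08986 it was below both (42.8%, against 56.0% and 48.9%). Both hybrids were aligned first to the Ler genome and selfed Cvi first to the Col reference. Against Cvi, cross and alignment therefore cannot be told apart. These comparisons do not involve the Cvi x Ler embryo. The depth of the pair differed, with 541236 CG calls in the Ler x Cvi endosperm and 13957682 in the Cvi x Ler endosperm.

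In embryos of that pair, 0 windows of the repeat loci were called in CG or CHG, and the only CHH call was 1 window lower in Ler x Cvi at AT1G40104 (1.79% of all windows). At AT2G11462, 6 of 16 CHG windows were called lower in Ler x Cvi (1.98% of all windows tested) and 1 of 16 CG windows (6.3%). Both counts involve the Cvi x Ler embryo, and without that library 0 windows of AT2G11462 were called between reciprocal embryos in CG or CHG, at 35 points or at any size.

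The repeat loci followed each other across libraries. The CG levels of AT1G40104 and AT2G08986 correlated at Pearson r = 0.993 over the 14 libraries, the highest value of AT1G40104 among 6148 genes and of AT2G08986 among 6149, each over 10 kb away. Next to AT1G40104 came the pseudogene AT5G31804 (0.990) and AT2G07981 (0.982), and next to AT2G08986 the pseudogenes AT1G40103 (0.988) and AT4G06702 (0.988). AT2G11462 was most like AT2G13150 (0.981), which encodes the basic leucine zipper protein bZIP31, and the pseudogenes AT4G06552 (0.963) and AT4G06551 (0.955), and it correlated at 0.892 with AT1G40104 and 0.891 with AT2G08986. These correlations describe libraries that share tissue and depth. AT1G40103 and AT2G07981 also share windows with the flanks of the repeat loci, and the part of the array sequence in these correlations was not tested.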

How the data were processed

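Whole-genome bisulfite sequencing was performed in 14 libraries, endosperm and embryo of 7 crosses. Per the methods, the authors discarded low quality reads, aligned the rest with Bismark (version not given in the sources used here) to TAIR10, a Cvi-substituted TAIR10 or a Ler genome converted to TAIR10 positions, eliminated redundant reads and pooled cytosines covered by 5 or more reads in 300 nt windows that start 200 nt apart. The weighted files hold, as deposited, the count of unmethylated and the count of methylated calls per window, and the deposited percent was not needed beside them. The deposited window mean files hold a percent per window and served as an alternative.

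Locus levels pooled the calls of windows overlapping the gene and 2 kb flanks that were present in both libraries compared. Windows were required to hold 15 calls (CG, CHG) or 50 (CHH) in each library and were tested by a two-sided Fisher's exact test, adjusted by Benjamini-Hochberg over all nuclear windows of that pair and context, and called at an adjusted p under 0.01 and 35 points (CG, CHG) or 10 points (CHH), after the study's rule. The required number of informative cytosines is not in the window values and was left out. A limit on a level from 0 methylated calls is 3 counts of the total. Calls share reads, pooled windows overlap, and calls are therefore not independent molecules.

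Besides the 3 loci, the genes named were those annotated in their flanks, the 3 genes over 10 kb away with the highest Pearson r of locus CG level, and the genes at the edge of the rule. Windows named were the best covered, those with the widest fall in Ler x Ler and Cvi x Cvi, and those with the lowest adjusted p per comparison. The loci, lists and tests were chosen with earlier results of these data known. TAIR10.1 (RefSeq) was searched with blastn 2.17.0, and computing used Python 3.11.15, numpy 2.4.6, pandas 2.3.3 and numba 0.67.0. Calling was tested on simulated data, in which 200 windows were lowered by 50 CG points. Of these, 140 were called between the Col and Ler embryos and 147 between the Ler x Cvi and Cvi x Ler endosperms, with 0 other windows, so that windows not called can still differ. Window calls between endosperm and embryo were left out, since that contrast chose the loci. Alternatives changed the flanks, weighting, call minimum, overlap of windows, file type and threshold, or left out Cvi x Ler or Col x Col. No protein sequences, transposon annotation or allele-specific files were used.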

Additional observations from a re-analysis of the deposited data

Results flagged for a closer look

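CHH methylation at AT2G11462 was higher in endosperm than in embryo in 2 crosses, by 1.62 points in Cvi x Cvi (5.12% in endosperm, 3.50% in embryo) and by 3.38 points in Col x Cvi (9.76% in endosperm, 6.38% in embryo), with counting intervals above 0. In Ler x Ler, Ler x Cvi and Cvi x Ler the interval lay below 0. With 1 library per group, the difference between crosses was not tested. The Col x Cvi value rests on 492 endosperm calls, and with windows of at least 50 calls it was -0.389 points.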

How the results depend on the processing

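Each group has 1 library and so no replicate numbers. Endosperm and embryo were set against each other within each cross throughout, without a test, because that contrast chose the loci. All mean differences between endosperm and embryo stayed below 0 under each setting run. The mean CG difference at AT1G40104 (-27.8 points) was -25.6 with unweighted windows, -28.6 with every second window and -23.4 with the window mean files, and that at AT2G08986 (-23.0) was -23.8 and -23.9 in the last 2 settings. In CHG, AT2G11462 moved to -22.5 with at least 15 calls (4 crosses), and with window mean files AT1G40104 moved to -15.1 and AT2G08986 to -13.2. In CHH, window mean files gave -1.60 and -2.05 points at these 2 loci. In settings chosen after seeing the data, the CG means of AT1G40104 and AT2G08986 were -29.7 and -24.4 without Cvi x Ler and -28.8 and -23.7 without Col x Col. Without Col x Col the CHG mean of AT1G40104 was -15.0 and the CHH means of the pair -1.43 and -1.49, and without Cvi x Ler the CHH mean of AT2G08986 was -2.03.

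Of 204 values of single crosses under these settings, 7 changed sign, 6 of them at AT2G11462. In 3 of the 7 the counting interval had excluded 0. The CG difference in Col x Cvi was 0.215 points in the gene body alone, and with at least 50 calls the CHH difference was -0.389 points in Col x Cvi and 0.211 points in Ler x Cvi. The other 4 came from the window mean files, with -12.7 points in CHG in Col x Col, -2.28 and -4.41 points in CHH in Col x Col and Cvi x Col, and, at AT1G40104, 3.02 points in CHH in Ler x Cvi. Of the CG values 23 of 124 moved beyond their counting interval, 10 of 39 in CHG and 14 of 41 in CHH.

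Call counts depended on the threshold. The stricter threshold was not run for endosperm against embryo, where no windows are called. At 50 points (20 in CHH), windows called between selfed embryos numbered 5 in CG instead of 17, 6 in CHG instead of 18 and 0 in CHH instead of 6, with 11 in CG at a minimum of 30 calls. Between reciprocal embryos they numbered 0 instead of 1, 5 instead of 13 and 0 instead of 2, and between reciprocal endosperms 1 instead of 2 in CG. For the Col and Cvi pair alone, chosen after seeing the data, they were 0, 7 and 1 in embryos and 1 in CG in endosperms. The share of genes lower in endosperm in every cross was 15.2% without Cvi x Ler and 15.0% without Col x Col, against 12.2%. Depth limits AT2G11462 most, with 24 to 96 CG calls in the shallow endosperms of Col x Cvi, Ler x Cvi, selfed Col and Cvi x Col.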
